A study of Mus musculus with 2 samples.

Results

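POMC neurons of the arcuate nucleus (ARC) were examined as 176 of 4395 ARC-side nuclei in a pooled single-nucleus RNA sequencing (snRNA-seq) library, 4.00% (exact 95% binomial interval 3.44 to 4.63). The mice were male wild-type C57BL/6J animals aged 10 to 12 weeks, with no treatment named in the labels, and the nuclei had been sorted on the neuronal nuclear antigen NeuN. No label assigns a nucleus to a mouse, so the data hold 1 pooled sample without replicates, and every value below is a description without a test across nuclei. The matrix gave, for 11409 barcodes that each occurred once, how many captured RNA molecules of every gene had been told apart by their molecular tags (UMIs). It also held 2 hashtags, ARC and PVH, which are barcoded antibodies against nuclear pore proteins that mark the preparation a nucleus came from. The hashtags were poorly separated, with a median of 112 ARC and 77 PVH hashtag UMIs in the POMC neurons themselves, so "ARC-side" names the hashtag criterion given next and not a verified dissection.

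The nuclei were selected on their own counts. The gene number had to lie above 800 and below 5000, the UMI total could not exceed 12000 nor the mitochondrial share 1%, which 10170 barcodes met, and the ARC hashtag count had to be at least 0.8 times the PVH count. It then had to hold at least 3 UMIs of Pomc and a UMI of at least 2 of 7 further genes, namely Arhgap31, Myo3b, Shroom3, Vav3, Rnf128, Trpc7 and Prdm12. Nuclei that met all of this are called members below, and the other 4219 ARC-side nuclei are the comparison. The levels of these 8 genes chose the members and are given as description only.

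POMC neurons make pro-opiomelanocortin, a precursor that prohormone convertases cut into α-melanocyte-stimulating hormone, β-endorphin and other peptides. Released by neurons of the ARC, α-melanocyte-stimulating hormone acts on melanocortin receptors of downstream neurons to restrain feeding. Neighbouring AGRP neurons release an antagonist of the same receptors. Leptin, insulin, serotonin, opioids and neuropeptide Y all act on POMC neurons, and the neurons are known to be a mixed population in both their receptors and their fast transmitters.

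These stretches of the mouse genome are shown because they lie directly before genes on which the account turns: Pomc itself, B4galnt2, the gene with the largest ratio named here, Lepr, the leptin receptor, and the short gap between Ostf1 and Nmrk1, a pair of genes transcribed away from each other that were both higher in members. They are RefSeq sequences of build GRCm38.p6, read 5′ to 3′ on the strand of the gene (of Nmrk1 for the last), and end before the start of the gene in GENCODE M21. Capitals mark TAAT, the core bound by many homeodomain proteins, TATAAA, the TATA box, and CCAAT, each searched on both strands, so that ATTA and ATTGG count too and 2 matches may overlap.
Pomc, chr12:3954695-3954944, plus strand: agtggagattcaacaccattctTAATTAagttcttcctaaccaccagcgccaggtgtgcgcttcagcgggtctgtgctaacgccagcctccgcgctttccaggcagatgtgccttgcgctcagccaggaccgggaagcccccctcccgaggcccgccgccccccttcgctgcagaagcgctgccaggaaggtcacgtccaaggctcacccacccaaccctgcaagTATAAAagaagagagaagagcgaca
B4galnt2, chr11:95914892-95915121, minus strand: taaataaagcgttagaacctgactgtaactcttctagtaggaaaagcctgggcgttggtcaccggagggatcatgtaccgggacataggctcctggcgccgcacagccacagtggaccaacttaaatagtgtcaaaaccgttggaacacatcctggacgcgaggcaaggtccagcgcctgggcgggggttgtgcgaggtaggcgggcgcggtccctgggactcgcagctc
Lepr, chr4:101717157-101717403, plus strand: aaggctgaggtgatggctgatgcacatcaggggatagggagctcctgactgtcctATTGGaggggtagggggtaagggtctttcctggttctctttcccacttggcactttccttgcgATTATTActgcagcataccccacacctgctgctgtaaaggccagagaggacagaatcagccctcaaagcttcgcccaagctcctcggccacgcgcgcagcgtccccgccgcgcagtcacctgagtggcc
Ostf1 to Nmrk1, chr19:18631824-18631949, plus strand: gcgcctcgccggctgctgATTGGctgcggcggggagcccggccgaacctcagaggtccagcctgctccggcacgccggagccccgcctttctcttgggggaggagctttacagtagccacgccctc
The Pomc stretch held 2 overlapping matches of TAAT, which 54.9% of 32851 RefSeq windows of the same 250 bases held, and 1 TATAAA, which 12.4% held. The Lepr stretch held 2 matches of TAAT and 1 of CCAAT, which 33.6% of windows of its length held. The gap between Ostf1 and Nmrk1 held 1 CCAAT, found in 19.7% of windows of its length, and the B4galnt2 stretch held none of the 3 motifs. A match is a run of letters and says nothing of binding in these nuclei.

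Members held 3 to 27 Pomc UMIs with a median of 5, and 45 of the 176 held exactly 3. They held a UMI of 2 to 6 of the 7 other genes with a median of 3, and 72 held exactly 2. The summed level of Pomc was 967 counts per 1000000 UMIs (CPM), with an exact 95% Poisson interval of 911 to 1026, against 115 (111 to 120) in the other ARC-side nuclei. Pomc RNA was not confined to members, since 40.3% of the other nuclei held at least 1 Pomc UMI at a median depth of 4742 UMIs. In a cluster of 29 nuclei with glial markers, which should lack the gene, Pomc stood at 221 CPM with a UMI in 48.3% of nuclei at a median depth of 2562 UMIs. A single Pomc UMI in a nucleus was therefore not read as expression. The comparison still held 121 nuclei with 3 or more Pomc UMIs. Whether these nuclei, or the 45 members with exactly 3, exceeded the level of the cluster with glial markers was not tested.

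The 2 gene criteria moved together in the nuclei. Among ARC-side nuclei without a Pomc UMI, 198 of 2518 (7.86%) held 2 or more of the 7 genes, and with 1 Pomc UMI 113 of 1221 did (9.25%). With 2 Pomc UMIs the share was 19.2% of 359 nuclei, with 3 it was 40.2% of 112, and with 4 it was 52.5% of 59. Of the 59 nuclei with 8 or more Pomc UMIs, 50 (84.7%, interval 73.0 to 92.8) held 2 or more of the 7 genes and were members. The median depth of these groups also went up, from 4681.5 UMIs per nucleus without Pomc to 7008 with 8 or more, and its part in the trend was not tested.

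**Figure D1:**
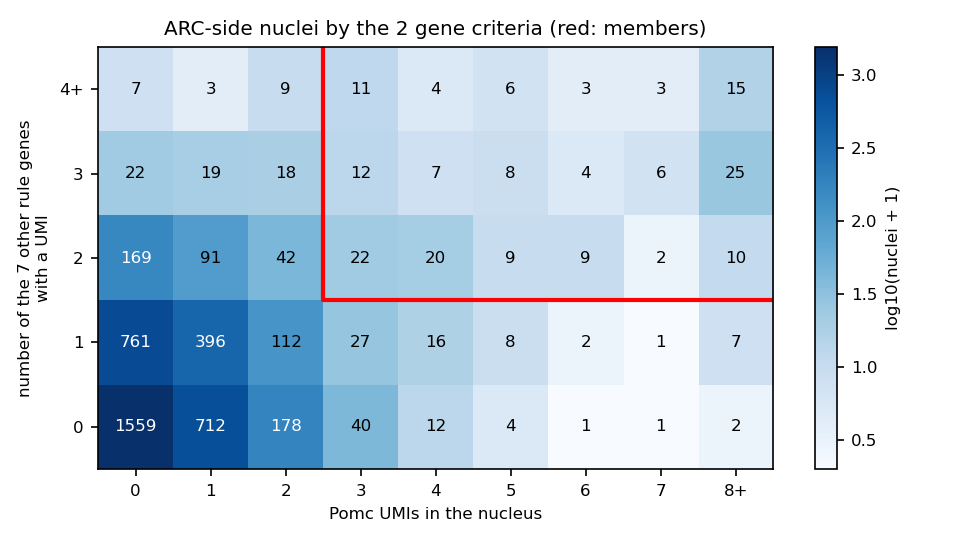
Number of ARC-side nuclei by Pomc UMIs in the nucleus (x axis, 8 or more joined) and by how many of the 7 other rule genes held a UMI (y axis, 4 or more joined), with colour on a log10 scale. The red line bounds the 176 members; 1559 nuclei held none of these genes, and the nuclei with 8 or more Pomc UMIs lay mostly inside the line.

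Just inside the Pomc threshold, the 45 members with 3 Pomc UMIs had Cartpt at 96.6 CPM, Lepr at 78.1 and B4galnt2 at 78.1. Just outside it, 69 nuclei with 2 Pomc UMIs and at least 2 of the 7 genes had Cartpt at 119, Lepr at 39.8 and B4galnt2 at 39.8. The 61 nuclei with 3 or more Pomc UMIs but only 1 of the 7 genes had Cartpt at 276 and Lepr at 64.7. The 60 with 3 or more Pomc UMIs and none of the 7 genes had Cartpt at 88.5, Lepr at 42.6 and B4galnt2 at 16.4, and the 198 with 2 or more genes and no Pomc had 102, 38.8 and 7.06. The other ARC-side nuclei together had Cartpt at 88.3, Lepr at 39.9 and B4galnt2 at 11.1. Just outside the Pomc threshold, B4galnt2 thus lay between these nuclei and the members just inside. Lepr there was at the level of the other nuclei, and Cartpt was not below the members just inside.

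The count thresholds favoured deeply sequenced nuclei. The median member had 6115.5 UMIs from 3112.5 genes, against 4742 UMIs from 2622 genes in the other ARC-side nuclei, and members held 1134898 UMIs in all against 21251009. When the ARC nuclei were demultiplexed with HTODemux and clustered with the Leiden method, 151 of the 176 members fell into 1 cluster of 282 nuclei. A further 16 members lay in 6 other clusters and 9 in none, 8 of them called doublets of both hashtags and 1 without a hashtag. Of the 282 nuclei of that cluster, 89 had fewer than 3 Pomc UMIs and 42 had enough Pomc but fewer than 2 of the 7 genes. Members made up 5 of its 29 nuclei below 4000 UMIs and 26 of its 32 nuclei at 8000 or more, so the count of 176 depends on depth.

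The label was checked against markers of POMC neurons that took no part in the selection. Cartpt, which encodes the anorexigenic peptide precursor CART and is a known companion of Pomc, was held by 105 members, 43 of them with 1 UMI, 23 with 2 and 39 with 3 to 12, while 71 held none. Its summed level was 252 CPM (224 to 283) in members and 88.3 in the other nuclei, a log2 ratio of 1.51 (exact binomial interval 1.33 to 1.69), and it was 81.5 CPM in the 29 nuclei with glial markers. After each nucleus had been thinned to 1000 UMIs, 22.2% of members and 8.84% of the others still held a Cartpt UMI. Tbx3, a T-box factor needed for the identity of these neurons, was higher in members by 1.23 on the log2 scale, and Sntb1, a syntrophin of the dystrophin complex, by 1.53. Pcsk1, the convertase that makes the first cuts in the precursor, was at 67.0 CPM in members and 39.2 in the others (0.77, 0.42 to 1.11). Isl1, a LIM homeodomain factor that acts on Pomc, was at 163 and 128 (0.35, 0.12 to 0.56). It was at 166 CPM (153 to 180) in the AGRP cluster described below. In the highest other neuron cluster of each gene, Cartpt was at 157 CPM (133 to 184) and Sntb1 at 92.8 (74.7 to 114). Tbx3 was at 73.6 CPM (59.4 to 90.1) there and Pcsk1 at 80.1 (63.9 to 99.1). Among these genes only Cartpt had a member interval above that of the cluster.

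Markers of other cells were mostly at or below their level in the comparison. Snap25, a neuronal SNARE protein, had at least 1 UMI in 173 of the 176 members, with a median of 5 UMIs. Of 9 markers of the pituitary, the other site of Pomc expression, 3 had no UMI in members and the others together had 12 UMIs, with the corticotroph factor Tbx19 at 1 UMI. Summed over members the 4 astrocyte markers had 6 UMIs, the 3 precursor markers of oligodendrocytes had 3, and Csf1r, C1qa, Flt1 and Cldn5 had none. In the others Csf1r was at 1.41 CPM, C1qa and Flt1 at 0.847 each and Cldn5 at 0. All lay under the 2.64 CPM that 3 counts in members would give, so a difference was not detectable. The microglial and endothelial counts came from Cx3cr1, at 16.7 CPM in members and 27.8 in the others, and from Pecam1, at 12.3 and 7.58. The 4 oligodendrocyte markers had 57.3 CPM in members and 103 in the others. The 5 tanycyte markers had 97.8 CPM and 117. Rax, at 0 UMIs in members, was at 0.706 CPM in the others, so a difference was not detectable. Vim, another of these markers, which also marks other cells, stood at 16.7 CPM in members and 3.44 in the others (log2 ratio 2.29, 1.47 to 3.03). The 5 markers of the ventromedial hypothalamus summed to 36.1 CPM in members and 29.1 in the others, of which Gpr149 gave 30.8 and 16.3. The defining Nr5a1 and Fezf1 had 0 UMIs in members. In the others they were at 1.04 and 0.941 CPM, too low for a difference to be detectable at this depth. The 4 dopamine markers summed to 74.0 CPM in members and 90.4 in the others, with Th lower (-2.15), and the 4 markers of neurons with kisspeptin, neurokinin B and dynorphin to 26.4 and 34.4, with Tac2 lower (-1.02). The part of RNA from other cells in the results was not tested.

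RNA of strongly expressed peptides was found in nuclei of all kinds. Oxt, the oxytocin precursor, a product of paraventricular and supraoptic neurons, had a UMI in 93.2% of members and 90.3% of the other nuclei, at 505 and 574 CPM, and in 86.2% of the 29 nuclei with glial markers at 884 CPM. Agrp had a UMI in 58.5% of members and 53.3% of the others at 157 and 178 CPM (log2 ratio -0.18, -0.41 to 0.03), and stood at 279 CPM in the 29 nuclei. Npy was at 84.6 and 122 CPM (-0.53, -0.84 to -0.23). The part of background RNA in these shares was not tested. The annotated Agrp gene also overlaps 7 others, 2 of them on its own strand, which may share reads. A UMI of Agrp or Npy in a member is therefore not taken as expression of that gene.

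Over all genes, the 176 members differed from the other ARC-side nuclei in a small part of the transcriptome. Of 12813 genes with at least 100 UMIs in ARC-side nuclei, apart from the 8 rule genes, 207 had at least 2-fold higher CPM in members with an interval above 1 (1.62% of genes) and 541 had at least 2-fold lower CPM with an interval below 1 (4.22%). The median log2 ratio of all genes was -0.04. Both counts cover counting error only. With a minimum of 300 UMIs per gene they were 92 and 341, with every nucleus thinned to 1000 UMIs 236 and 266, and with an ARC hashtag count of at least 2 times the PVH count, which left 31 members, 84 and 236.

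Among genes outside the rule with a UMI in at least 10% of members, B4galnt2 had the largest ratio. It encodes a glycosyltransferase that makes the Sda antigen and lies on chr11:95865943-95914891 on the minus strand. It had no UMI in 110 members, 1 in 25, 2 in 16 and 3 to 17 in 25, whereas 4018 of the 4219 other nuclei held none and 9 held 3 or more. Its level was 151 CPM (129 to 175) in members and 11.1 in the others, a log2 ratio of 3.76 (3.47 to 4.05), and without the member that held the most UMIs it was 3.62. A single overlapping gene is annotated on the opposite strand, Gm11534.

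The next genes had small counts in most nuclei. Cdc20b, a gene of the multiciliated cell locus on chromosome 13, was at 50.2 CPM in members and 5.36 in the others (log2 ratio 3.23, 2.74 to 3.70). Pon3, a paraoxonase that hydrolyses lactones, was at 35.3 and 4.38 CPM (3.01, 2.44 to 3.56). Ntng2, the axonal adhesion protein netrin-G2, was at 30.8 and 5.60 CPM (2.46), and Msn, the membrane-cytoskeleton linker moesin, at 20.3 and 3.72 CPM (2.45). Gem, a small GTPase that restrains calcium channels, was at 109 and 25.1 CPM (2.12), but 1 member held 21 of its 124 UMIs and without it the value was 1.87. Cdc20b overlaps 3 annotated genes on its own strand, so reads there could be split in more than 1 way.

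Further genes were found in most members. Cpne4, a calcium-dependent membrane-binding copine, had a UMI in 88.1% of members and 32.7% of the others, at 711 and 175 CPM (log2 ratio 2.03, 1.91 to 2.14). Ptprm, a receptor tyrosine phosphatase that mediates cell adhesion, had a UMI in 95.5% and 37.8%, at 595 and 164 CPM (1.86, 1.74 to 1.98). Slc35f3, a putative thiamine transporter, had a UMI in 79.0% and 32.9%, at 366 and 102 CPM (1.84, 1.68 to 1.99). Members held a median of 4 Cpne4, 3 Ptprm and 2 Slc35f3 UMIs, where the median of the other nuclei was 0 for each. The rest of the 20 highest genes were Rab37, Ostf1, Gpr139 and Mcf2, the neuropeptide Y receptors described below, and 5 non-coding genes, Gm20757, Gm39185, Gm32828, Gm19705 and Gm9984, with log2 ratios between 1.84 and 3.35. Gm9984 lies antisense within Ptprm, and without a stated strand setting its reads cannot be told apart from those of Ptprm.

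**Figure D2:**
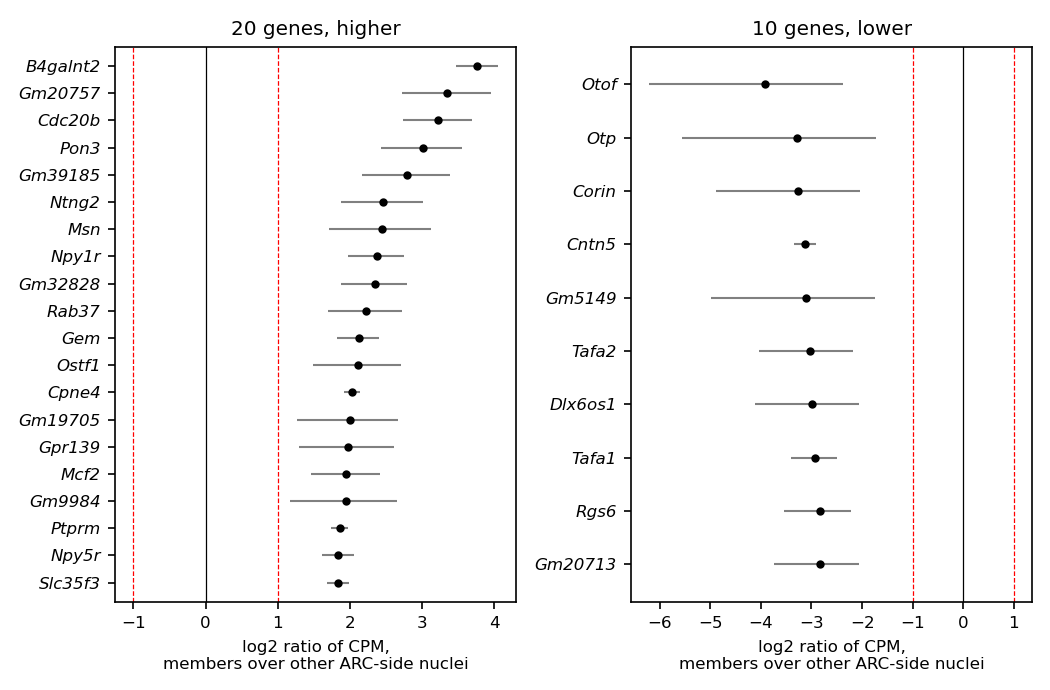
Log2 ratio of CPM in the 176 members over the 4219 other ARC-side nuclei for the 20 genes with the highest and the 10 with the lowest ratio among genes found in at least 10% of members (left) or of other nuclei (right). Points are the ratios, bars are exact 95% intervals for counting error and dashed red lines mark a 2-fold ratio; B4galnt2 stands highest at 3.76 and Otof lowest at -3.92.

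Of the 20 highest genes, 15 were at their highest level in members when set against each of the 12 other neuron clusters of the ARC. For 8 the interval of the members lay above that of every such cluster. The 20 genes were picked for their ratio over the other ARC-side nuclei, among which these clusters lie. Both counts are therefore largely fixed by that choice and are no separate test of specificity. For B4galnt2 the next cluster was at 15.7 CPM (9.43 to 24.5), for Cpne4 at 509 (464 to 557), for Ptprm at 275 (244 to 309) and for Slc35f3 at 150 (132 to 170). Members were also picked for their Pomc count, whereas the clusters were taken whole. In the non-members of the Leiden cluster that held most members, B4galnt2 was at 50.3 CPM, Cpne4 at 786, Ptprm at 597 and Slc35f3 at 347. Gm32828, which is among the 8, was at 14.8 CPM (7.09 to 27.2) there and at 19.8 (12.7 to 29.4) in the next cluster. Ntng2, Msn, Rab37, Mcf2 and Npy5r each had 1 cluster above the members. For Ntng2 it was at 44.5 CPM (33.4 to 58.1) against 30.8 (21.5 to 42.9) in members, so their intervals overlapped.

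Several higher genes were neighbours on a chromosome. Npy1r and Npy5r lie 9063 bases apart on chromosome 8 and are transcribed away from each other, and both were higher in members. Ostf1, an SH3 protein named for osteoclasts, and Nmrk1, a kinase of the nicotinamide riboside route to NAD, have starts 126 bases apart on chromosome 19, the gap printed above, and their log2 ratios were 2.12 (1.48 to 2.71) and 1.78 (1.33 to 2.21). Tbx3 was higher together with its antisense RNA Tbx3os1 (1.47), with Tbx3os2 (1.78) and with Gm16064 (1.06). Six3, a homeobox factor of the ventral forebrain, was higher by 1.17 and the overlapping Six3os1 by 1.42. Nmrk1, Tbx3os1, Tbx3os2, Gm16064 and Six3os1 were picked for this paragraph after their values had been seen, and overlapping genes may share reads.

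Among the genes lower in members, which were 4.22% of all genes, were 2 of the 5 AGRP markers, Otp and Corin. Otp, a homeobox factor of AGRP and other peptide neurons, had 3 UMIs in members and was at 2.64 CPM against 25.7 (log2 ratio -3.28, -5.57 to -1.73). Corin, a serine protease of AGRP neurons, had 5 UMIs and was at 4.41 CPM against 42.3 (-3.26). Dlx6os1, an antisense RNA of the Dlx5 and Dlx6 locus, was at 7.93 CPM against 63.0 (-2.99), and Dlx1, a homeobox factor of GABAergic neurons, at 1.76 against 12.4 (-2.82). Otof, the calcium sensor otoferlin, had 3 UMIs in members and was at 2.64 CPM against 40.1 (-3.92, -6.20 to -2.37).

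Genes found in many of the other neurons were among them as well. Cntn5, an adhesion protein of the contactin family, was at 145 CPM in members and 1267 in the others (-3.12, -3.35 to -2.90), with no UMI in 120 members and up to 24 in 1. Syt1, the calcium sensor of fast vesicle release, was at 256 and 1066 CPM (-2.06, -2.23 to -1.89), with no UMI in 89 members against 600 of the 4219 other nuclei. Tafa1 and Tafa2, which encode small secreted proteins, were lower by 2.93 and 3.03 on the log2 scale, and Rgs6, a regulator of G-protein signalling, by 2.84. The other neuronal markers did not share this, since Snap25 was at 0.26, Tubb3 at 0.27, Rbfox3 at -0.06 and Elavl4 at 0.96. In the cluster of 282 nuclei, the 130 ARC-side nuclei that were no members had Syt1 at 216 CPM and Cntn5 at 256 CPM, and the 25 members outside the cluster had Syt1 at 887 and Cntn5 at 471.

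Genes with a ratio past 2-fold were longer than the rest in either direction. The median length was 49.6 kb for the 207 higher genes, 76.1 kb for the 541 lower genes and 28.9 kb for all genes tested. Of genes of 300 kb or more, 3.55% were higher and 14.2% lower, whereas of genes under 10 kb 1.18% were higher and 2.41% lower. The part of gene length and count in these shares was not tested. Protein-coding genes made up 78.3% of the higher genes and 87.9% of all genes tested, and antisense genes 10.6% and 6.62%.

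Receptors for peptides and transmitters formed a list of 26, of which 21 had enough UMIs. Of these 5 were higher and 4 lower in members, with a median log2 ratio of 0.09 against 1.62% higher, 4.22% lower and -0.04 for all genes. The 5 higher were both neuropeptide Y receptors, a dopamine, a serotonin and an opioid receptor. In the highest other neuron cluster of each gene, Npy1r was at 40.4 CPM (30.2 to 52.8) and Npy5r at 188 (165 to 213). The opioid receptor gene Oprm1 was at 148 CPM (125 to 175) there, and the serotonin receptor gene Htr4 at 104 (85.3 to 125). These intervals all overlapped those of the members. In the non-members of the Leiden cluster that held most members, Npy1r was at 26.6 CPM, Npy5r at 146, Oprm1 at 235 and Htr4 at 115. Npy1r, the Gi-coupled Y1 receptor, was at 64.3 CPM in members (50.4 to 80.9) and 12.4 in the others, a log2 ratio of 2.37 (1.98 to 2.75), with a UMI in 46 members. Npy5r, the Y5 receptor, was at 180 CPM (156 to 206) and 50.2 (1.84, 1.62 to 2.06), with a UMI in 102 members. Npy2r, the Y2 receptor that AGRP neurons use as autoreceptor, was at 46.7 and 43.9 CPM (0.09, -0.34 to 0.49).

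Oprm1, the μ-opioid receptor through which β-endorphin inhibits POMC neurons, was at 195 CPM in members (170 to 222) and 85.8 in the others (1.18, 0.97 to 1.38), with a UMI in 61.4% and 27.9% of nuclei. It overlaps Ipcef1 on the opposite strand, which was higher as well and is named here after its value was seen. The κ receptor gene Oprk1 was lower, at 2.64 and 15.6 CPM (-2.56) on 3 UMIs, and Oprd1 and Oprl1 were at 0.28 and -0.54 with intervals that held 0. Drd2, an inhibitory dopamine receptor, was at 22.9 and 6.63 CPM (1.79, 1.12 to 2.40), with a UMI in 18 of the 176 members.

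Of the serotonin receptors, Htr4, which raises cyclic AMP, was at 117 CPM in members and 45.0 in the others (1.38, 1.11 to 1.64). Htr2c, the receptor through which serotonergic drugs excite POMC neurons, was at 140 and 130 CPM (0.11, -0.13 to 0.34). Htr1b had 1 UMI in members, at 0.881 against 7.11 CPM (-3.01, -8.32 to -0.51), and Htr2a was lower by 1.56. Chrm3, a muscarinic receptor, was at 26.4 and 152 CPM (-2.52, -3.09 to -2.01). Hcrtr1, Htr1a and Galr1 had no UMI in members, which allows up to 2.64 CPM at a limit of 3 counts. In the others they were at 2.40, 0.988 and 2.68 CPM, so a difference was not detectable at this depth.

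**Figure D3:**
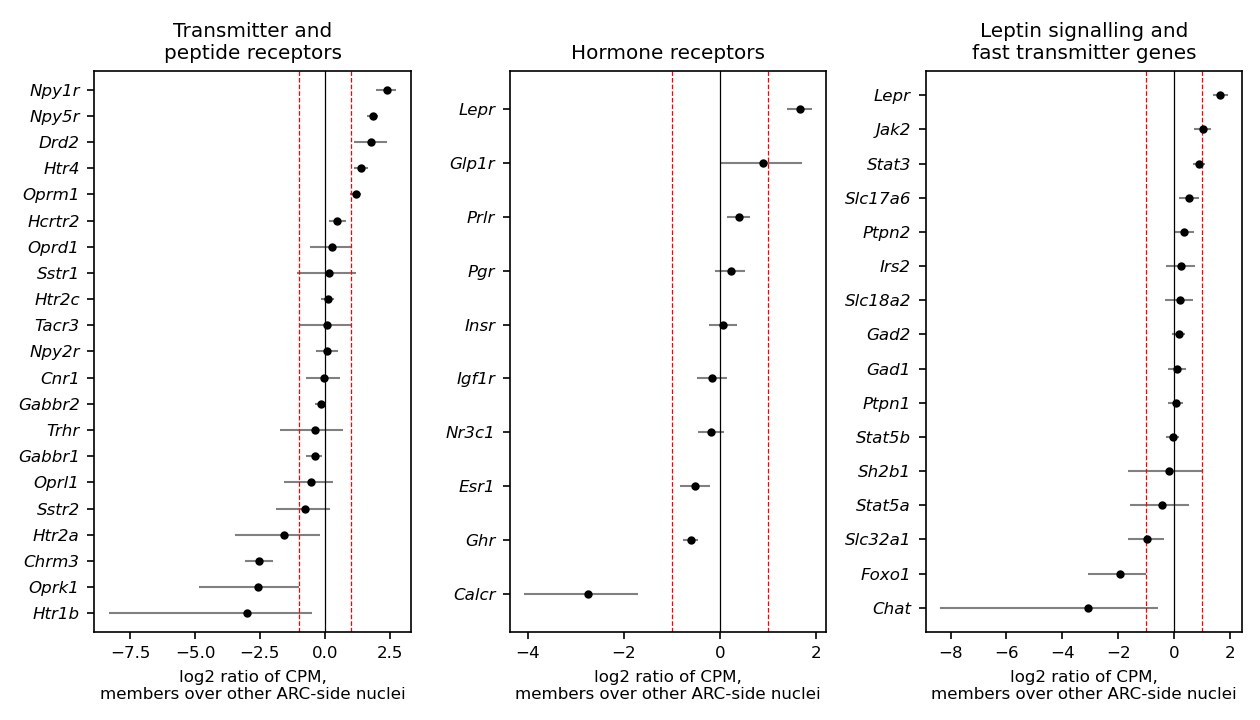
Log2 ratio of CPM in members over other ARC-side nuclei for genes of 4 lists that had at least 100 UMIs in ARC-side nuclei and a UMI in members. Bars are exact 95% intervals for counting error and dashed red lines mark a 2-fold ratio; Npy1r, Npy5r, Drd2, Htr4, Oprm1, Lepr and Jak2 lie beyond the upper line.

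Lepr was the only one of 16 hormone receptors counted as higher, among 12 with enough UMIs, while 2 were lower. Of all genes tested, 1.62% were higher and 4.22% lower. Of the members, 105 held no Lepr UMI, 38 held 1, 16 held 2 and 17 held 3 to 9, and of the other nuclei 1.19% held 3 or more. The level was 126 CPM (106 to 148) in members and 39.9 (37.3 to 42.7) in the others, a log2 ratio of 1.66 (1.39 to 1.92). After thinning to 1000 UMIs 10.2% of members and 4.01% of the others held a UMI. The value moved with the hashtag criterion, since among the 31 members with at least 2 times as many ARC as PVH hashtag UMIs it was 0.24 (-0.80 to 1.14), and with the PVH-side nuclei as comparison it was 3.29.

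The other hormone receptors with enough UMIs were within 2-fold of the comparison, except Calcr and Ramp1. Insr, the insulin receptor, was at 95.2 CPM in members and 91.0 in the others (0.06, -0.23 to 0.34), and Igf1r at 81.1 and 90.5 (-0.16, -0.48 to 0.14). Prlr, the prolactin receptor, was at 145 and 110 CPM (0.39, 0.16 to 0.62), and Esr1, an oestrogen receptor, at 82.8 and 118 (-0.51, -0.83 to -0.22). Glp1r, the receptor for glucagon-like peptide 1, was found as a single UMI in 14 members, at 12.3 and 6.59 CPM (0.90, -0.00 to 1.70). Calcr, the calcitonin receptor that also forms amylin receptors, was at 6.17 and 41.6 CPM (-2.76, -4.07 to -1.71). Ramp1, an accessory protein of such receptors, had no UMI in members and was at 4.94 CPM in the others, at least 1.87-fold lower at a limit of 3 counts over all members.

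Of 11 genes of leptin signalling, 10 had enough UMIs, with 2 higher, 1 lower and a median log2 ratio of 0.16, beside 1.62% higher and 4.22% lower of all genes. Besides Lepr, its kinase Jak2 was higher, at 97.8 CPM in members and 48.2 in the others (1.02, 0.73 to 1.31). Stat3, the transcription factor that the kinase activates, was at 166 and 89.0 CPM (0.90, 0.67 to 1.11), short of 2-fold, with a UMI in 88 of the 176 members and 30.4% of the others. Socs3, the feedback inhibitor that STAT3 induces, had 12 UMIs in members and too few overall to be counted, at 10.6 and 4.09 CPM (1.37, 0.36 to 2.25). Foxo1, which opposes STAT3 at the Pomc promoter, was lower at 7.93 and 30.2 CPM (-1.93, -3.06 to -0.99). Ptpn1, the phosphatase that dephosphorylates JAK2, was at 122 and 117 CPM (0.06, -0.20 to 0.31).

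Among 14 channel genes on which leptin and insulin are known to act, 12 had enough UMIs, 1 was higher and 3 were lower, with a median of -0.57, beside 1.62% and 4.22% of all genes. Kcnj3, a subunit of the G-protein-gated potassium channel, was at 395 CPM in members and 185 in the others (1.09, 0.95 to 1.23), with a UMI in 86.9% and 49.0% of nuclei. Its partner gene Kcnj6 was at 285 and 214 CPM (0.42, 0.25 to 0.58), and Kcnj9 was lower at 11.5 and 23.0 CPM, with an interval of -1.92 to -0.22. Kcnq5, a subunit of the M-current, was at 67.8 and 299 CPM (-2.14, -2.48 to -1.81). Trpc5, the cation channel through which leptin depolarizes POMC neurons, was at 128 and 249 CPM (-0.97, -1.21 to -0.73).

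The enzymes and granule proteins that process the precursor formed a list of 12. None was counted as higher or lower, where 1.62% and 4.22% of all genes were, so a count of 0 among so few says little. Their median log2 ratio was -0.08, with values from -0.35 for Scg3 to 0.80 (0.33 to 1.23) for Vgf, and the intervals of Vgf and Pcsk1 lay above 0. Pcsk2, which makes the later cuts, was at 316 CPM in members and 268 in the others (0.24, 0.08 to 0.39), and Cpe, the carboxypeptidase that trims the products, at 168 and 189 (-0.17, -0.39 to 0.04). Of the other melanocortin genes, Mrap2, an accessory protein of melanocortin receptors, was at 0.34 (-0.02 to 0.68) and Atrn at -0.01. Mc3r had 4 UMIs in members and Mc4r none, below what this depth could compare. Of 16 neuropeptide genes 13 had enough UMIs, with a median of -0.29. Cartpt alone was higher among them, and Nts, neurotensin, was lower on 2 UMIs (-1.90, -4.96 to -0.02).

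Transcription factors of the hypothalamus formed a list of 23, 12 of them with enough UMIs, with a median log2 ratio of 0.14. Tbx3 and Six3 were higher and Otp, Dlx1 and Foxp2 lower, beside 1.62% higher and 4.22% lower of all genes. Nkx2-1, which patterns the ventral hypothalamus, was at 25.6 CPM in members and 13.6 in the others (0.91, 0.31 to 1.47), and Prox1 at 61.7 and 40.0 (0.62, 0.25 to 0.98). Nhlh2, a helix-loop-helix factor that acts on Pcsk1, had 7 UMIs in members (1.48, 0.09 to 2.63) and too few overall to be counted. Bnc2, which marks another group of leptin-responsive ARC neurons, had 0 UMIs in the 176 members, a limit of 2.64 CPM at 3 counts, and was at 1.98 CPM in the others, so a difference was not detectable at this depth.

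Fast transmitter genes gave no single type, with a median log2 ratio of 0.14 over the 6 with enough UMIs. None of the 6 was higher and Chat was lower, beside 1.62% higher and 4.22% lower of all genes, so these counts say little. Slc17a6, the vesicular glutamate transporter, had a UMI in 43 members (24.4%, 18.3 to 31.5) and in 16.1% of the others, at 66.1 and 45.3 CPM (log2 ratio 0.54, 0.19 to 0.88). Its direction was not stable, since it was -0.16 (-1.49 to 0.92) after thinning, -0.36 (-1.60 to 0.66) among the 31 members with the stricter hashtag criterion and -0.16 against the PVH-side nuclei. Slc32a1, the vesicular GABA transporter, had a UMI in 16 members (9.09%, 5.29 to 14.3) and in 16.9% of the others, at 19.4 and 38.0 CPM (-0.97, -1.65 to -0.36). Gad2, which makes GABA, was at 142 and 126 CPM (0.17, -0.06 to 0.40), and Gad1 at 68.7 and 63.5 (0.11, -0.23 to 0.44). A UMI of Slc17a6 and of Gad1 or Gad2 occurred together in 34 members (19.3%) and in 6.73% of the others. Of the 43 members with Slc17a6, 29 (67.4%, 51.5 to 80.9) held Gad2, as did 64 of the 133 without it (48.1%, 39.4 to 57.0), and the medians of their depth were 6361 and 5968 UMIs. Neither vesicular transporter was seen in 122 members (69.3%), the same share as in the others, with 2922 of 4219 nuclei (69.3%). The median depth was 6115.5 UMIs in members and 4742 in the others, and its part in the shares compared here was not tested. Chat, which makes acetylcholine, had 1 UMI in members (-3.07, -8.38 to -0.57).

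AGRP neurons are the neighbours most often set against POMC neurons, and 677 nuclei of the cluster with the highest Corin level served for this comparison, in which 1 further nucleus was a member. Lepr did not tell them apart at this depth, at 126 CPM in members (106 to 148) and 115 in the AGRP cluster (104 to 126), a log2 ratio of 0.14 (-0.15 to 0.41), with a UMI in 40.3% and 45.6% of nuclei. This holds for nuclei picked for their Pomc count, since the 130 non-member ARC-side nuclei of the cluster of 282 had Lepr at 87.8 CPM (66.8 to 113). Stat3 was at 166 and 185 CPM (-0.16, -0.40 to 0.08) and Insr at 95.2 and 87.9 (0.11, -0.21 to 0.43), whereas Jak2 was at 97.8 and 42.9 (1.19, 0.83 to 1.55). Members had more of both Y receptors than the AGRP cluster, by 3.42 (2.72 to 4.18) for Npy1r and 2.61 (2.26 to 2.96) for Npy5r.

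Several receptors that were within 2-fold of the other ARC-side nuclei differed more between members and the AGRP cluster. Prlr was at 145 CPM in members and 13.7 in the AGRP cluster (3.40, 2.94 to 3.89), Esr1 at 82.8 and 23.8 (1.80, 1.37 to 2.24), Igf1r at 81.1 and 28.1 (1.53, 1.11 to 1.95) and Htr2c at 140 and 32.5 (2.11, 1.76 to 2.46). Ghr, the growth hormone receptor, was at 285 CPM in members and 1344 in the AGRP cluster (-2.23, -2.40 to -2.07), and Calcr at 6.17 and 107 (-4.12, -5.45 to -3.06). Slc17a6 was at 66.1 and 13.7 CPM (2.27, 1.74 to 2.82), while Gad2 was at 142 and 139 (0.03, -0.23 to 0.29). Agrp itself was at 157 and 286 CPM (-0.87, -1.11 to -0.64). Corin, whose level chose the cluster, was at 4.41 and 151 CPM.

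Members were not uniform, and levels of genes outside the rule varied with their Pomc count. Cartpt was at 149 CPM (115 to 190) in the 76 members with 3 or 4 Pomc UMIs, 269 (227 to 316) in the 79 with 5 to 9 and 481 (378 to 603) in the 21 with 10 or more. B4galnt2 was at 82.7 (57.9 to 115), 162 (130 to 199) and 301 (221 to 401) CPM in the same order, Npy1r at 34.5, 66.2 and 141, and Npy5r at 124, 190 and 301. For Lepr the values were 103 (75.4 to 138), 138 (108 to 173) and 147 (93.5 to 221), whose intervals overlapped. Other genes ran the opposite way, with Sntb1 at 172 (136 to 216), 101 (76.2 to 132) and 64.1 (30.7 to 118) CPM and Oprm1 at 225 (183 to 274), 204 (168 to 246) and 76.9 (39.7 to 134). The median depth of the 3 sets was 5545, 6496 and 6777 UMIs, and CPM takes out its first-order part only.

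**Figure D4:**
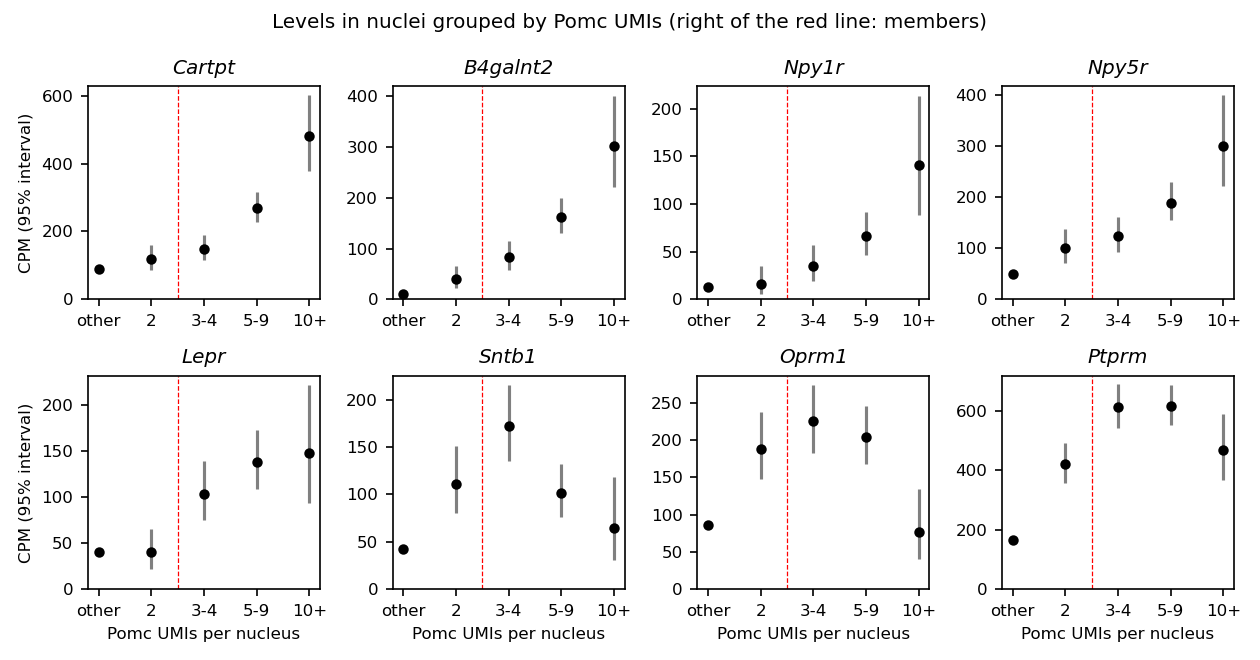
Summed CPM (y axis, from 0) of 8 genes in the other ARC-side nuclei, in the 69 nuclei with 2 Pomc UMIs and 2 or more of the 7 genes, which are a subset of the former, and in members with 3 to 4, 5 to 9 and 10 or more Pomc UMIs (x axis). Bars are exact 95% Poisson intervals and the dashed red line marks the Pomc threshold; Cartpt, B4galnt2 and both Y receptors are highest with 10 or more Pomc UMIs, where Sntb1 and Oprm1 are lowest among members.

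Clustering of the members alone, on 1000 variable genes without the 8 rule genes, gave 3 groups of 64, 59 and 53 nuclei at a resolution of 0.5, and 3 groups again at 0.3 but 5 at 1.0. Any gene outside the rule could enter the clustering, so differences between groups in such genes are a description of how they were divided. The median depth was 5744, 6052 and 6989 UMIs in the 3 groups, and its part in their differences was not tested. That cluster of 282 nuclei, the main Leiden cluster, held 62, 40 and 49 nuclei of the 3 groups, and 2, 3 and 3 nuclei were hashtag doublets. Pomc, which was left out of the clustering, was at 977 CPM (879 to 1082), 753 (669 to 845) and 1178 (1071 to 1293).

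Group 3, of 53 nuclei, stood apart by Lepr and Slc17a6. Lepr was at 250 CPM (202 to 306), against 83.2 (56.5 to 118) in group 1 and 46.6 (27.6 to 73.7) in group 2. Slc17a6 was at 130 CPM in group 3, 34.9 in group 1 and 33.7 in group 2, and Cartpt at 418, 236 and 106. B4galnt2 was at 295 CPM (243 to 356) in group 3, 129 in group 1 and 31.1 in group 2, and Npy1r at 106 (76.0 to 145), 56.3 (34.9 to 86.1) and 31.1. Npy5r was at 255 (207 to 312) in group 3, 177 (137 to 225) in group 1 and 109 in group 2, so the intervals of both Y receptors overlapped between groups 3 and 1. All 15 Anxa2 UMIs of the members lay in this group, in 9 nuclei. Its leading genes were Ntng2, Sox6, Plxdc2, Sh3pxd2b and Sorcs2, with Plxdc2, a transmembrane plexin-domain protein, at 303 CPM against 26.4 in the other members.

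Groups 1 and 2 shared what group 3 had little of. Htr2c was at 180 CPM (139 to 228) in group 1 and 197 (155 to 246) in group 2, against 42.6 (24.3 to 69.1) in group 3. Sntb1 was at 123 CPM in group 1 and 228 in group 2, with 6 UMIs in group 3, Oprm1 at 327, 192 and 66.5, and the rule gene Arhgap31 at 180, 127 and 21.3. All 26 UMIs of Drd2 and all 14 of Glp1r lay in groups 1 and 2. Gad2 was at 164, 82.9 and 181 CPM, so the GABA enzyme was present in the group with the most Slc17a6. Agrp was at 182, 148 and 141 CPM with overlapping intervals.

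Group 1 had no sharp leading genes, the first being Med25 and Matn2, each at 56.3 CPM against 18.4 in the other members. Group 2 was led by Cntnap5b, Dach1, Dscaml1, D030068K23Rik and Fam189a1, with Dscaml1, a cell adhesion protein, at 63 UMIs against 15 in all other members. It also held the most Syt1, at 492 CPM against 85.9 in group 1 and 181 in group 3, the lowest Pomc, and 19 of the 25 members outside the main Leiden cluster. Markers of the paraventricular nucleus summed to 963 CPM in group 2 and to 770 and 598 in groups 1 and 3, but 1 nucleus held 77 of the 372 UMIs in group 2. Without the nucleus with the most of these UMIs in each group, a comparison added after the data were seen, the sums were 777 (691 to 871), 760 (673 to 855) and 576 (501 to 658) CPM. The part of admixed nuclei in group 2 was not tested.

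**Figure D5:**
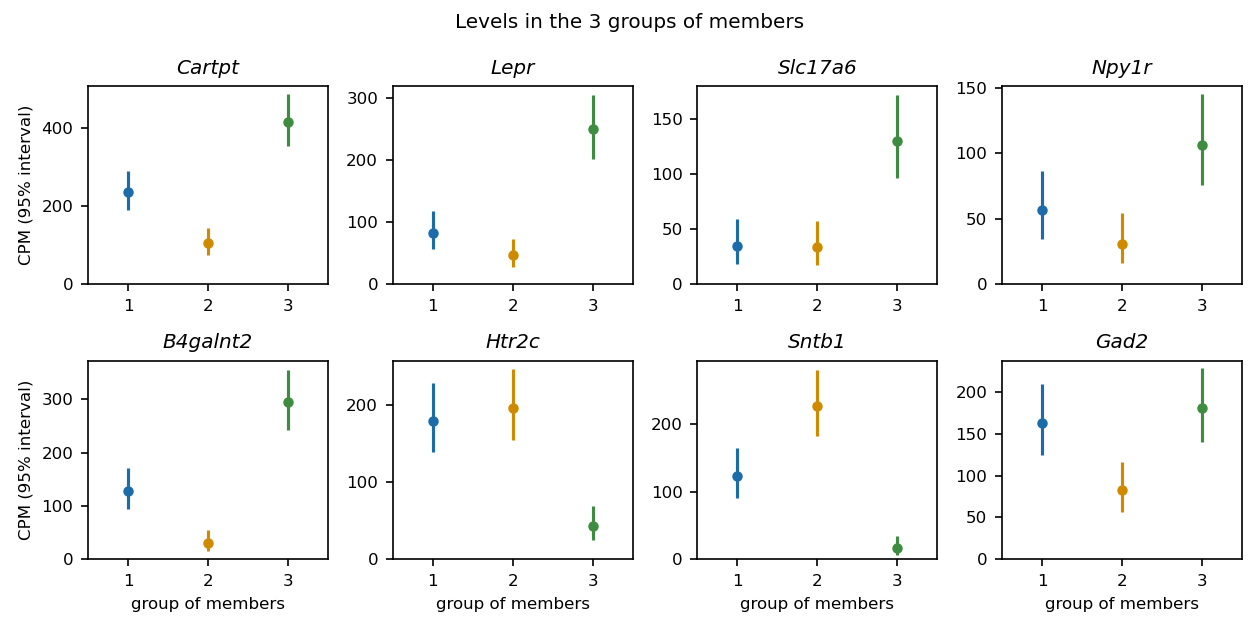
Summed CPM (y axis, from 0) of 8 genes in the 3 groups of members (x axis; 64, 59 and 53 nuclei), with exact 95% Poisson intervals for counting error as bars. Group 3 is highest in Cartpt, Lepr, Slc17a6, Npy1r and B4galnt2 and lowest in Htr2c and Sntb1.

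UMIs of several receptors were seen together in single members, counted here without correction for background RNA or missed molecules. Of the 71 members with a Lepr UMI, 49 (69.0%, 56.9 to 79.5) also held Cartpt, against 56 of the 105 without Lepr (53.3%, 43.3 to 63.1). Npy5r was held by 51 of the 71 (71.8%, 59.9 to 81.9) and by 51 of the 105 (48.6%, 38.7 to 58.5). Htr2c was held by 26 of the 71 (36.6%, 25.5 to 48.9) and by 45 of the 105 (42.9%, 33.2 to 52.9). Members with a Lepr UMI had a median depth of 6824 UMIs and those without 5748, and the part of depth in these shares was not tested.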

How the data were processed

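Sorted nuclei were sequenced on the 10x platform. The deposited values are UMI counts without normalization, for which the submitters' processing notes name Cell Ranger 5.0 and mm10 and the file header Cell Ranger 4.0.0. The sources used here state neither the intron nor the strand setting of the counting. Gene positions were read from GENCODE M21 (GRCm38), where 32235 of 32285 identifiers had an entry.

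Barcodes were filtered and members chosen as given above, in Python 3.11.15 with scipy 1.17.1. The members, gene lists and thresholds were chosen with earlier results of these data known. Named genes were the listed genes, the 20 highest and 10 lowest by ratio and 5 leading genes per group of members with a UMI in at least 25% of the group; genes outside this rule are marked as such. Levels are UMIs summed over nuclei per 1000000 UMIs, with exact 95% Poisson, binomial and conditional binomial intervals, which cover counting error only and neither the spread between nuclei nor that between mice. HTODemux (Seurat 5.3.0, positive quantile 0.8) and Leiden clustering at a resolution of 0.55 served for comparison, and members were clustered in scanpy 1.11.5 with 10 components and 15 neighbours. Doublets of nuclei with the same hashtag were not removed. The ratio, its interval and the 2-fold rule were tested on simulated Poisson counts, which lack the spread between nuclei. Values of 2 listed genes are not reported here.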

Additional observations from a re-analysis of the deposited data

Results flagged for a closer look

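On the PVH side of the hashtag criterion, which the comparisons above leave out, 17 of 5775 nuclei (0.294%, exact binomial interval 0.172 to 0.471) held at least 3 Pomc UMIs and 2 or more of the 7 other genes, where 4.00% of ARC-side nuclei did. They were looked at because this signal lies outside the nuclei that were compared. Pomc was at 846 CPM (679 to 1042) and Cartpt at 192 (118 to 297), B4galnt2 at 67.3 (27.1 to 139) and Lepr at 48.1 (15.6 to 112), while Npy1r had no UMI. HTODemux called 8 of them doublets of both hashtags, 5 PVH nuclei and 4 without a hashtag. Their median of 59 ARC and 128 PVH hashtag UMIs lay near that of all PVH-side nuclei, 50 and 113.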

How the results depend on the processing

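The number of members was 100 with at least 5 Pomc UMIs, 104 with at least 3 of the 7 genes, 282 for the Leiden cluster in place of the rule and 31 with ARC at least 2 times PVH hashtag UMIs; the other 7 alternatives gave 146 to 245. Under that hashtag criterion 84 genes were higher and 236 lower, and the log2 ratios were 1.26 for Cartpt, 0.24 for Lepr, -0.36 for Slc17a6 and -1.10 for Agrp. With at least 2 Pomc UMIs Cartpt was 1.32 and Lepr 1.39, and with at least 5 Cartpt was 1.82 and Slc32a1 -1.73. Without upper limits on genes and UMIs Cartpt was 1.70. Without members holding 3 or more Agrp UMIs Agrp was -0.74, a fall that the choice of nuclei fixes. Against PVH-side nuclei 346 genes were higher, Lepr was 3.29 and Slc17a6 -0.16. After thinning to 1000 UMIs 266 genes were lower, Lepr was 1.38, Slc17a6 -0.16 and Agrp -0.64. Without a minimum count per gene 448 genes were higher, and with 300 UMIs 92 were higher and 341 lower, since fewer genes were tested. Clustering of members at a resolution of 1.0 gave 5 groups. Apart from the fewer genes tested, the cause of these shifts was not tested. Over 15 alternatives each, Cartpt stayed between 1.26 and 1.82 and Slc32a1 between -1.73 and -0.40. No paired analysis was possible because the data hold 1 pooled sample. Depth limits genes with few UMIs, and no alternative could leave out a mouse.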
